A study of Mus musculus with 40 samples.

Results

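The genes described here were the secreted and membrane-bound axon guidance ligands and their receptors, taken by gene symbol: the vertebrate semaphorins, ephrins, netrins and Slits, and the plexins, neuropilins, Eph receptors, Robo receptors and Unc5 receptors. The rule matched 67 genes of the 26132 genes counted in the series, 34 ligands (20 semaphorins, 8 ephrins, 3 netrins and 3 Slits) and 33 receptors (14 Eph receptors, 9 plexins, 4 Robo receptors, 4 Unc5 receptors and 2 neuropilins), and 1 further symbol that the rule covers, Ntn3, was not analysed here. RNA was sequenced from mammary glands of wildtype female FVB/N mice, an inbred strain. Glands were separated into luminal cells and basal cells of the epithelium, adipocytes and fibroblasts. Pubertal mice were 34 to 36 days old and each pubertal library held a pool of 4 mice, whereas adult virgin mice were 14 to 16 weeks old, were staged as proestrus, estrus, metestrus or diestrus by vaginal cytology and were pooled by 2 to 3 per library. Each of the 20 combinations of cell type with puberty or an adult stage had 2 libraries, 40 in all, so that each adult cell type had 8 libraries. No mouse carried a transgene or received an agent. Luminal and basal cells were sorted by the surface proteins EpCAM and CD49f, adipocytes were the fraction that floated after digestion, and fibroblasts were all sorted cells without EpCAM and CD49f after removal of cells that carried CD45, CD31 or Ter119. The adipocyte and fibroblast fractions are therefore defined by flotation and by the lack of epithelial surface proteins, and not by a surface marker of their own.

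Axon guidance genes were named for steering growing nerve fibres, and the same families act between cells of many other tissues. Secreted class 3 semaphorins bind neuropilins, which hand the signal to plexins, while most membrane-bound semaphorins bind plexins directly. Ephrins are tethered to the cell surface and signal to Eph receptor tyrosine kinases on a touching cell, and the ephrin itself can signal backwards. Netrins bind Dcc, neogenin and Unc5 receptors, and Slits bind Robo receptors. In the mammary gland these genes are best known from the growth and branching of the ducts, where netrin 1 with neogenin and the Slits with Robo1 take part in holding the luminal and basal layers together and in limiting branching.

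The RefSeq tables held 74 promoter windows for 58 of the 67 genes (GRCm38.p6), and 5 windows are shown for genes on which the results below turn. Each window is the 250 bases before the annotated start, written 5′ to 3′ on the strand of the gene, with each GC box (GGGCGG, or CCGCCC on the other strand), a short motif bound by Sp-family factors, in capitals. Plxnb2 is shown as the most abundant plexin of luminal cells (chr15:89180789-89181038, minus strand), Ephb1 as a receptor with reads mainly in basal cells (chr9:102354694-102354943, minus strand), Epha3 as a receptor of fibroblasts (chr16:63864176-63864425, minus strand), Sema3e as a ligand whose basal level differed between puberty and adulthood (chr5:14025026-14025275, plus strand) and Unc5b as the receptor that differed between stages in luminal cells (chr10:60831582-60831831, minus strand).
Plxnb2: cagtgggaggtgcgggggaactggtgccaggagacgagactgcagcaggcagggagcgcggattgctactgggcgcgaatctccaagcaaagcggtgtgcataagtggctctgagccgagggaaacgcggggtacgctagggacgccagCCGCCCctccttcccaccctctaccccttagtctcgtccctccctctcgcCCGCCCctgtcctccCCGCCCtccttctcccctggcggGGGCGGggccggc
Ephb1: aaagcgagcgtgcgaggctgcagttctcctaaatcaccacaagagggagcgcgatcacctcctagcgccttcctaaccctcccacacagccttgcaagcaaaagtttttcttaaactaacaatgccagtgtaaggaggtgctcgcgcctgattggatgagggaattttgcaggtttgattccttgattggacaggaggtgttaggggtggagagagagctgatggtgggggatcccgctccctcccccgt
Epha3: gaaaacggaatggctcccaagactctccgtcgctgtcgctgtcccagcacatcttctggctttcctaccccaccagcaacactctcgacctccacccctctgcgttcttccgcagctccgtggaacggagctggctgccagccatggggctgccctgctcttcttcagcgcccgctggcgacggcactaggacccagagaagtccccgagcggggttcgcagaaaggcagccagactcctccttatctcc
Sema3e: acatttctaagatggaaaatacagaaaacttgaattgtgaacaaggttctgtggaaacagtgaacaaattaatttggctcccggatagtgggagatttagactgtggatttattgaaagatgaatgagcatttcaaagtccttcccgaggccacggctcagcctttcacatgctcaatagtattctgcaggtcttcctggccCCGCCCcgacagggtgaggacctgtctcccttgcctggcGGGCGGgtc
Unc5b: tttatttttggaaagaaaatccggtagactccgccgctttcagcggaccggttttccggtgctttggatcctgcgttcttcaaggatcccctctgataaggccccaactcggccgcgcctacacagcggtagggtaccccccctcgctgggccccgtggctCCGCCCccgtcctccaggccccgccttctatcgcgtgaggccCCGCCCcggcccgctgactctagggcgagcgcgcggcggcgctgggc
The GC box was found 4 times in the Plxnb2 window, 2 times each in the Sema3e and Unc5b windows and 0 times in the Ephb1 and Epha3 windows. It was present in 52 of the 74 windows of these families (70.3%), against 32.7% of all 32851 windows of the same length. None of the 5 windows held the half-site of the estrogen receptor (GGTCA or TGACC), which 32.4% of the members' windows and 35.2% of all windows held. The half-site of the progesterone receptor (AGAACA or TGTTCT) was also absent from the 5 windows and was held by 9.46% of the members' windows and 16.1% of all windows. The 3 motifs do not overlap one another in sequence, and a match is a description of the letters only.

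Counts per library summed to between 8991222 and 22760563 in adult mice and between 11774264 and 19033586 in pubertal mice. Each cell type carried its own markers: summed over the genes of each list, luminal markers reached 21268 to 27087 CPM (counts scaled by library size) in the adult luminal libraries, basal markers 10777 to 14913 in basal, adipocyte markers 2894 to 12236 in adipocyte and fibroblast markers 18401 to 48622 in fibroblast libraries. The stromal fractions also held other cells. Fibroblast markers summed to 3536 to 7407 CPM in the adult adipocyte libraries, above the adipocyte sum of 2894 CPM in the second diestrus library, and to 9108 and 17966 CPM in the pubertal ones, against adipocyte sums of 5470 and 3009 CPM there, so that the pubertal adipocyte libraries held more reads of fibroblast than of adipocyte markers. The sum of 10 endothelial markers was 680 to 2212 CPM in adult adipocyte and 1125 to 2937 CPM in adult fibroblast libraries, against 19.3 to 52.0 CPM in luminal and 10.1 to 39.9 CPM in basal libraries, although cells with the endothelial protein CD31 had been removed from the sort, and all 10 markers were above 0.1 CPM in both stromal fractions. The sum of 8 pericyte markers was 1933 to 2732 CPM in fibroblast, 843 to 1681 in basal, 515 to 1154 in adipocyte and 119 to 246 in luminal libraries. Leukocyte markers (9 genes) reached 274 to 651 CPM in adipocyte libraries and at most 50.4 CPM in the others, and Schwann cell markers (6 genes) were highest in fibroblast libraries, at 169 to 430 CPM. Both diestrus adipocyte libraries stood apart, with luminal markers at 1730 and 664 CPM against 145 to 445 in the other 6 adult adipocyte libraries. The pubertal and adult libraries came from separate sequencing runs, so age and run cannot be told apart in any comparison between them.

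In adult glands all 4 cell types expressed both ligands and receptors, and the count above the levels given here was largest in fibroblasts. Levels are given as RPKM, read counts scaled by the exon length of the gene and by the size of the library, with the mean ± SD over the 8 adult libraries of a type. Mean levels above 1 RPKM were reached by 43 members in fibroblasts (22 ligands and 21 receptors), while basal cells had 36 such members (18 and 18), adipocytes 31 (18 and 13) and luminal cells 25 (14 and 11). Above 10 RPKM were 18, 13, 12 and 8 members in the same order. The share of all genes above these levels was not counted in any type. A core of 17 members had a mean above 1 RPKM in every type, namely Efna1, Efna5, Efnb1, Efnb2, Epha2, Ephb3, Ephb4, Ephb6, Ntn1, Ntn4, Plxna1, Plxnb2, Sema3c, Sema3f, Sema4b, Sema4c and Unc5b. Conversely, 20 members had a mean below 1 RPKM in every adult type, and 7 of these (Epha5, Epha6, Epha8, Epha10, Robo3, Slit1 and Unc5d) had means below 0.1 RPKM. For 6 members (Efna3, Efna4, Epha1, Ntn5, Plxna1 and Sema4c) more than 5% of the exon sequence overlaps exons of a gene on the other strand, and since the strand setting of the counting was not given, reads of the partner genes cannot be told apart there.

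**Figure D1:**
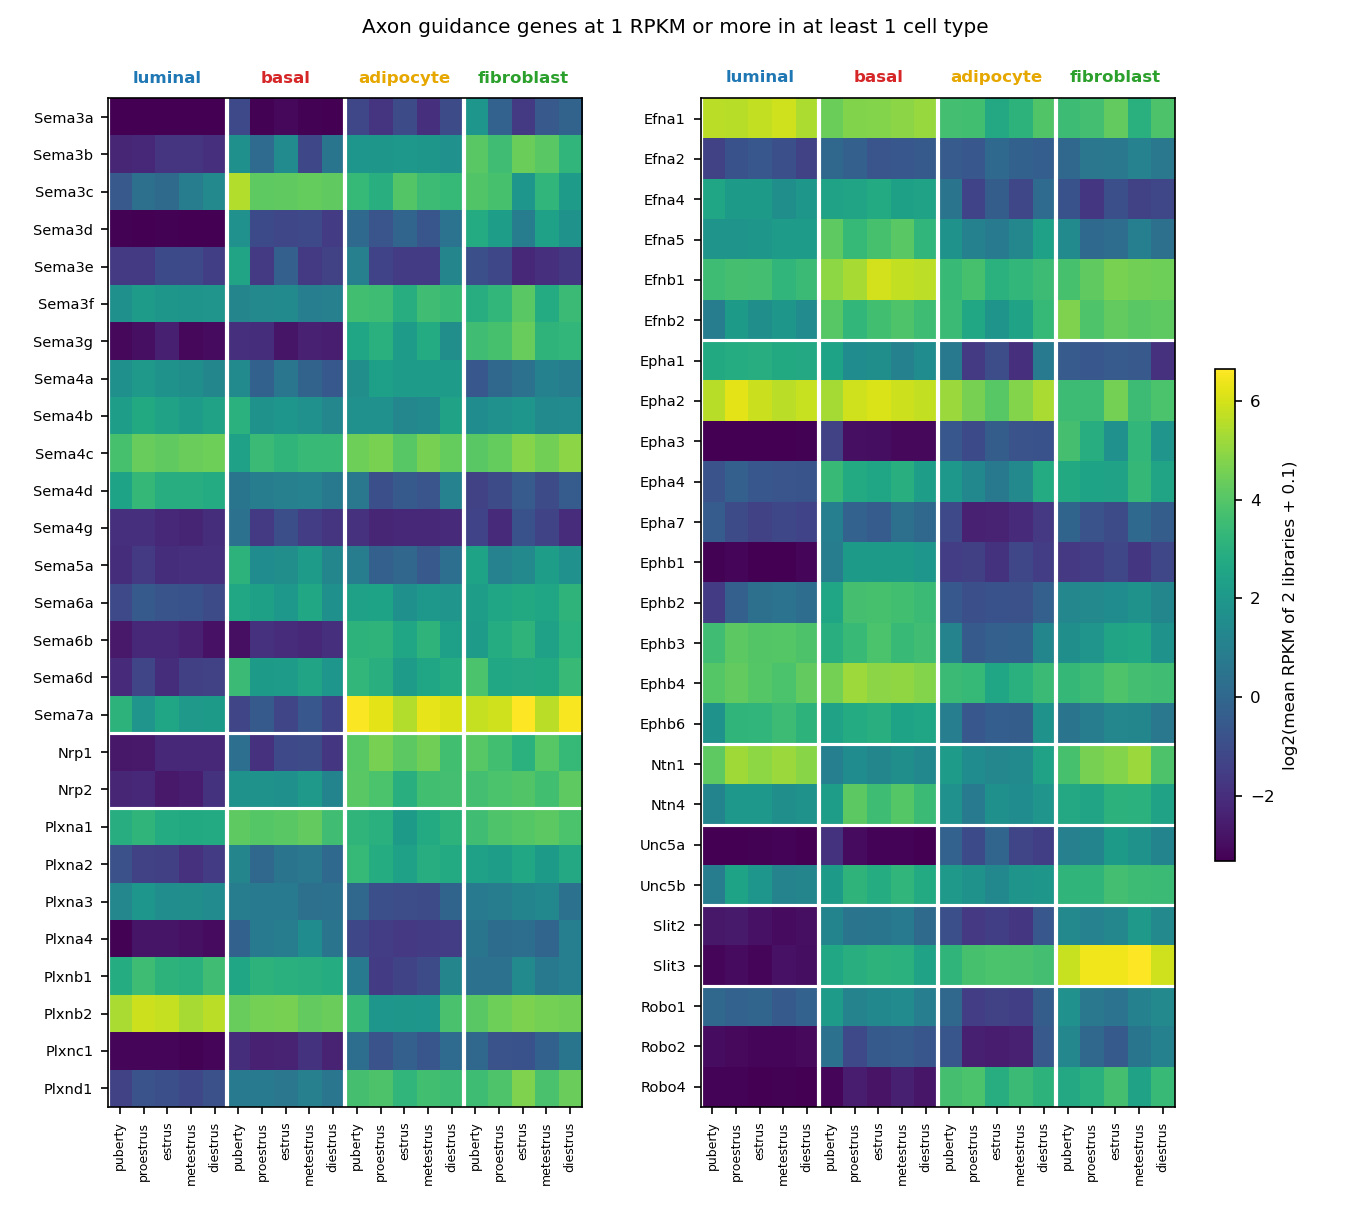
Level of each member with a mean of at least 1 RPKM in some cell type, as the colour of log2(mean RPKM of 2 libraries + 0.1), with 1 column for puberty and for each adult stage in each cell type and white lines between families, semaphorins with neuropilins and plexins on the left and the other families on the right. Bright squares include Slit3 in fibroblasts, Sema7a in both stromal fractions, Epha2 in both epithelial types, Efnb1 in basal cells and Efna1 and Plxnb2 in luminal cells, and Sema3g, Sema6b and Robo4 are dark in both epithelial types.

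Of the 67 members, 59 passed the filter of more than 1 CPM in at least 2 libraries and were tested over the adult types with edgeR's quasi-likelihood test and Benjamini-Hochberg adjustment over all 15077 genes. Luminal and basal cells differed at 52 of these 59: 15 were higher in luminal cells, where 35.3% of all genes were higher, and 37 were lower, where 38.3% of all genes were lower. The median difference over the members was -1.46 on the log2 scale, against -0.04 over all genes. Adipocytes and fibroblasts differed at 44 members, 5 higher in adipocytes (39.2% of all genes) and 39 lower (39.1% of all genes), with a median of -1.13 against 0.02. A member was called highest in a type when it was higher there than in each of the other 3 types at an adjusted p under 0.05. This held in luminal cells for 10 members (background 15% of all genes), in basal cells for 12 (17.7%), in adipocytes for 2 (20.5%) and in fibroblasts for 18 (15.7%), and 17 of the 59 had no single highest type (Efna3, Epha2, Epha4, Plxna1, Plxna2, Plxnb1, Plxnc1, Robo4, Sema3e, Sema3f, Sema4c, Sema4g, Sema5a, Sema6b, Sema6c, Sema6d and Sema7a). The 8 members that did not pass the filter were the 7 with means below 0.1 RPKM and Ntn5. In bulk libraries fewer cells of a type and less RNA per cell cannot be told apart.

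The members called highest in luminal cells included Ntn1, Efna1, Plxnb2 and 3 semaphorins (Sema4b, Sema4d and Sema4f). Among ligands, Ntn1, the founding netrin, ranged from 26.8 to 39.7 RPKM in luminal cells (median 32.8), from 13.5 to 38.1 in fibroblasts (median 26.1), from 2.15 to 5.60 in adipocytes and from 1.86 to 3.19 in basal cells. The luminal and fibroblast ranges of Ntn1 overlapped, and the luminal level was higher by 0.44 ± 0.09 on the log2 scale (estimate ± standard error, which is the size of the log2 estimate divided by the square root of the F statistic, edgeR adjusted p = 0.000109), while the 2 lower types lay far below both and did not differ from each other (0.12 ± 0.09, edgeR adjusted p = 0.212). Efna1, an ephrin that binds Epha receptors, was 51.0 ± 7.31 RPKM in luminal cells and 29.6 ± 4.35 in basal cells, with no overlap of the 8 libraries each (40.9 to 60.7 against 24.7 to 39.1), a difference of 0.72 ± 0.12 (edgeR adjusted p = 1.97e-05). Sema4d, a membrane-bound semaphorin and ligand of plexin B1, reached 6.26 to 11.6 RPKM in luminal cells and 1.41 to 2.14 in basal cells, again without overlap and with a log2 difference of 2.05 ± 0.19 (edgeR adjusted p = 4.21e-09). Sema4b was 5.34 ± 0.981 RPKM, above adipocytes at 3.33 ± 1.58 by 0.80 ± 0.14. Sema4f was low even where highest, at 0.740 ± 0.343 RPKM.

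Among receptors of luminal cells, Plxnb2, which binds class 4 semaphorins such as Sema4c, was the most abundant plexin of the data. It ranged from 36.2 to 59.2 RPKM in luminal cells (median 52.1), from 18.6 to 25.8 in fibroblasts, from 17.5 to 27.1 in basal cells and from 3.38 to 17 in adipocytes. No library of another type reached the luminal range of Plxnb2, and the difference from fibroblasts, the next type, was 1.1 ± 0.10 (edgeR adjusted p = 3.95e-09). Ephb3, a receptor for B-type ephrins, was 15.8 ± 1.44 RPKM in luminal and 11.7 ± 2.12 in basal cells (0.39 ± 0.11, edgeR adjusted p = 0.0031), ranges that overlapped. Ephb6, an Eph receptor without kinase activity, was 9.59 ± 1.91 against 6.38 ± 0.996 (0.54 ± 0.15). Epha1 was 6.84 ± 0.443 against 2.66 ± 0.602 RPKM and did not overlap between the types (1.32 ± 0.15). Plxna3 was 3.02 ± 0.487 RPKM, above fibroblasts at 1.89 ± 0.538 by 0.71 ± 0.12. The dependence receptor Unc5b, which binds netrin 1, was 3.32 ± 1.44 RPKM in luminal cells and lower there than in basal cells (7.99 ± 1.41) or fibroblasts (11.1 ± 1.80).

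Basal cells, the contractile outer layer of the duct, had 12 members called highest in them, among them Efnb1, Efna5, Ephb1, Ephb2, Ephb4 and Sema3c. Efnb1, a transmembrane ephrin, ranged from 39.2 to 66.5 RPKM in basal cells (median 51.4), from 18.1 to 25 in fibroblasts, from 8.90 to 14.0 in luminal cells and from 7.62 to 15.2 in adipocytes. The basal libraries lay above all others, and Efnb1 exceeded fibroblasts, the next type, by 1.28 ± 0.08 (edgeR adjusted p = 7.13e-12). Ephb2, a receptor of B-type ephrins, ranged from 9.11 to 16.4 RPKM in basal cells, from 1.48 to 4.20 in fibroblasts, from 0.570 to 1.55 in luminal cells and from 0.303 to 0.893 in adipocytes, again without overlap, and exceeded fibroblasts by 2.25 ± 0.21 (edgeR adjusted p = 4.45e-09). Ephb1, a related receptor, was 4.08 ± 0.607 RPKM in basal cells and 3.92 ± 0.22 higher than in fibroblasts, and only 7 reads fell on it in the 8 adult luminal libraries together. Ephb4, which pairs with ephrin B2, was 31.3 ± 4.41 RPKM in basal and 17 ± 2.94 in luminal cells (0.95 ± 0.14, edgeR adjusted p = 2.86e-06). Sema3c, a secreted semaphorin, was 18.6 ± 2.92 RPKM in basal cells and 11.1 ± 4.43 in adipocytes, whose ranges of 14.2 to 21.9 and 4.90 to 17 overlapped (0.90 ± 0.29, edgeR adjusted p = 0.00802). It was 1.60 ± 1.11 RPKM in luminal cells.

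The other basal ligands were Ntn4, a netrin that binds laminins of the basement membrane, Efna5 and Efna4. Ntn4 was 14.0 ± 4.07 RPKM against 6.80 ± 1.68 in fibroblasts (1.1 ± 0.15), and Efna5 was 12.4 ± 3.85 RPKM against 4.01 ± 0.586 in luminal cells (1.65 ± 0.16). Efna4 was 5.63 ± 1.01 RPKM against 3.81 ± 0.797 in luminal cells (0.62 ± 0.22, edgeR adjusted p = 0.0142). The Slit receptor Robo1 was 2.28 ± 0.583 RPKM in basal cells and 1.81 ± 0.730 in fibroblasts, with overlapping ranges and a difference of 0.41 ± 0.18 (edgeR adjusted p = 0.0405). Plxna4 was 1.87 ± 0.769 RPKM against 1.23 ± 0.700 in fibroblasts (0.66 ± 0.28, edgeR adjusted p = 0.0365), and Efnb3 and Epha7 completed the 12 genes, at 0.555 ± 0.115 and 0.883 ± 0.223 RPKM. Epha2, the most abundant Eph receptor, did not separate the epithelial layers: it was 60.2 ± 10.1 RPKM in basal and 59.1 ± 11.9 in luminal cells, a difference of 0.10 ± 0.15 (edgeR adjusted p = 0.598), above 27.6 ± 12.8 in adipocytes and 15 ± 5.92 in fibroblasts.

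Adipocytes were highest for only 2 members, Nrp1 and Sema4a. Nrp1, the neuropilin that binds Sema3a and also the vascular growth factor VEGF, ranged from 9.14 to 24.8 RPKM in adipocytes (median 19.8) and from 6.58 to 16.9 in fibroblasts (median 10.8), while it was at most 0.511 RPKM in every adult epithelial library. The stromal ranges of Nrp1 overlapped, with a difference of 0.62 ± 0.18 (edgeR adjusted p = 0.00436). Sema4a was 4.54 ± 0.547 RPKM in adipocytes and 3.20 ± 1.04 in luminal cells (0.48 ± 0.19, edgeR adjusted p = 0.0245). Leukocyte markers summed to 274 to 651 CPM in these adipocyte libraries and to at most 50.4 CPM in the other adult types. The part of leukocytes in the Sema4a level was not tested. The count of 2 became 1 without the second proestrus or the second estrus adipocyte library.

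Fibroblasts held the largest group, which included Slit2 and Slit3, the semaphorins Sema3a, Sema3b, Sema3d and Sema3g, and the receptors Unc5a, Unc5b and Unc5c. Slit3, a secreted Robo ligand, ranged from 47.9 to 143 RPKM in fibroblasts (median 85.1), from 9.90 to 15 in adipocytes (median 13.6) and from 5.15 to 9.40 in basal cells, and 27 reads fell on it in the 8 luminal libraries together. The fibroblast libraries did not overlap with any other type, and Slit3 exceeded adipocytes by 2.78 ± 0.12 (edgeR adjusted p = 8.25e-14). Slit2 followed the same order of fibroblasts and basal cells at lower levels, 2.75 ± 1.05 and 1.31 ± 0.266 RPKM (0.98 ± 0.16). Sema3b was 14.8 ± 4.88 RPKM in fibroblasts against 3.65 ± 0.669 in adipocytes, and the ranges of 9.21 to 21.7 and 2.13 to 4.18 did not overlap (2.02 ± 0.24, edgeR adjusted p = 1.69e-07). Sema3g was 12.9 ± 5.31 against 5.52 ± 2.22 RPKM, with a slight overlap between 8.33 to 23 and 2.62 to 8.42 (1.32 ± 0.18). Efnb2, the transmembrane partner of Ephb4, was 17.2 ± 3.07 RPKM against 12.0 ± 2.65 in basal cells (0.47 ± 0.18, edgeR adjusted p = 0.0195), and Sema6a was 6.70 ± 2.47 against 4.53 ± 1.74 (0.54 ± 0.20, edgeR adjusted p = 0.0176).

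Among the receptors of fibroblasts, Epha3 ranged from 2.67 to 10.6 RPKM and exceeded adipocytes (0.243 to 0.758 RPKM) by 3.52 ± 0.21 (edgeR adjusted p = 5.39e-11), and 1 read fell on Epha3 in the 8 luminal libraries together. Unc5a was 3.00 ± 1.26 RPKM against 0.457 ± 0.338 in adipocytes (2.87 ± 0.30), and Unc5b was 11.1 ± 1.80 RPKM against 7.99 ± 1.41 in basal cells (0.43 ± 0.12, edgeR adjusted p = 0.00314). Plxnd1, a plexin of blood vessels and the receptor of Sema3e, was 18.9 ± 5.71 RPKM in fibroblasts and 11.8 ± 3.25 in adipocytes (0.72 ± 0.17). Nrp2 was 14.8 ± 3.88 against 11.5 ± 3.55 RPKM (0.45 ± 0.18, edgeR adjusted p = 0.0245), again with overlapping ranges. The remaining fibroblast members were Efna2, Plxnb3, Robo2, Sema3a, Sema3d, Sema5b and Unc5c, with means from 0.398 to 3.70 RPKM. Several stromal members were near level between fibroblasts and adipocytes. Sema7a, a membrane-anchored semaphorin, was 76.1 ± 27.4 and 66.2 ± 28.2 RPKM (0.24 ± 0.23, edgeR adjusted p = 0.353), Robo4, the endothelial Robo, was 9.12 ± 3.78 and 10.2 ± 3.99, Sema6b was 7.26 ± 2.46 and 7.07 ± 3.28 and Sema3f was 11.1 ± 4.13 and 10.4 ± 4.15. Endothelial cells also express members of these families, among them Nrp1, Nrp2, Plxnd1, Robo4, Sema3g, Sema6b and Sema7a, and this list is not complete. The 10 markers of endothelial cells summed to at least 680 CPM in every adult stromal library and to at most 52.0 CPM in every adult epithelial library. The part of those cells in the stromal levels was not tested.

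**Figure D2:**
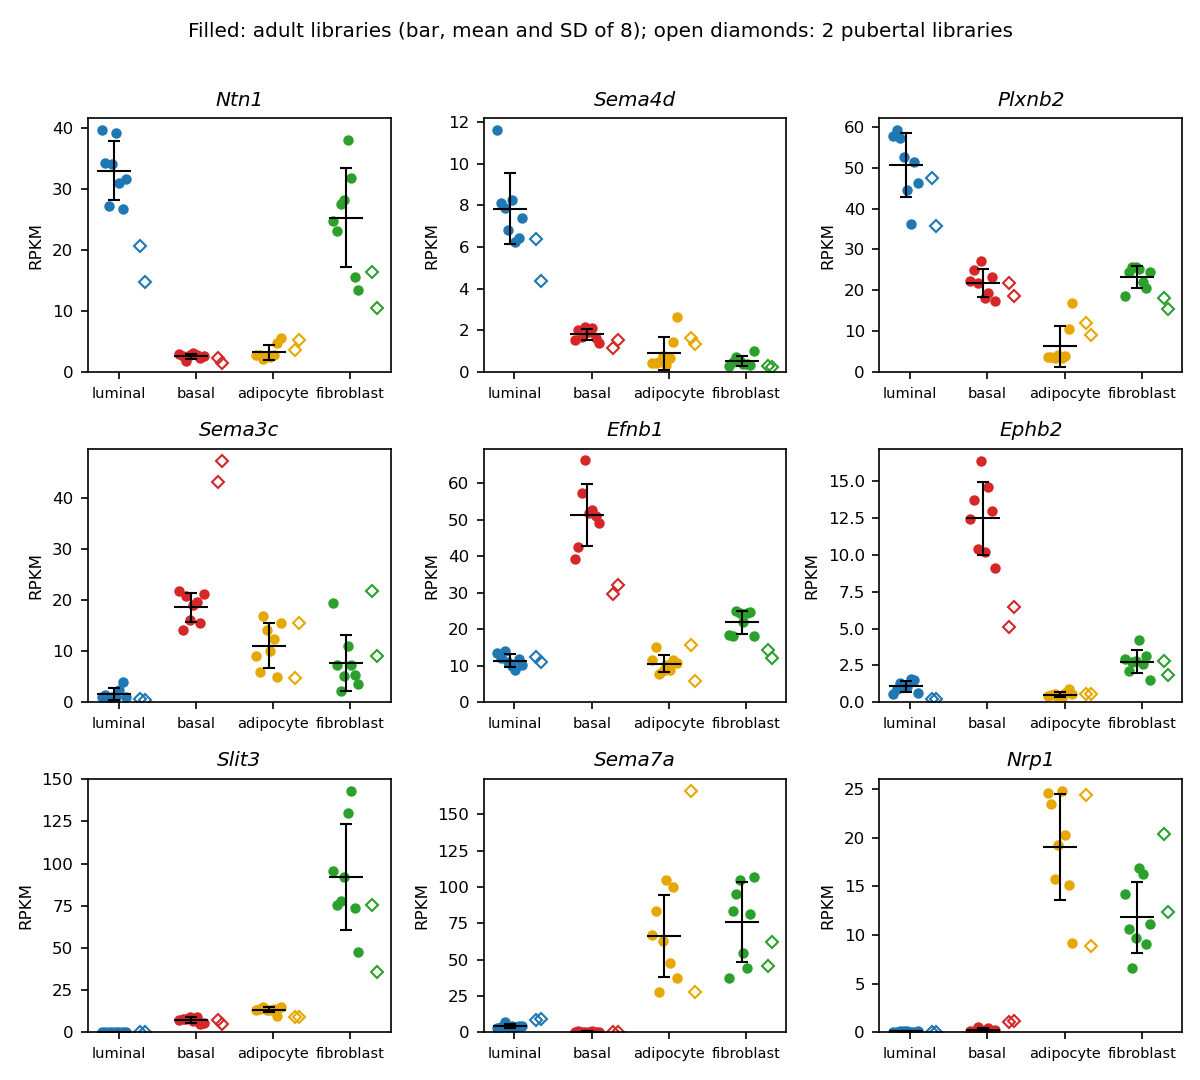
RPKM of 9 members (Ntn1, Sema4d, Plxnb2, Sema3c, Efnb1, Ephb2, Slit3, Sema7a and Nrp1) in every library, by cell type: filled points are the 8 adult libraries with a bar at their mean and SD, and open diamonds are the 2 pubertal libraries. The adult points of Slit3 in fibroblasts (47.9 to 143 RPKM) and of Plxnb2 in luminal cells (36.2 to 59.2 RPKM) stand clear of the other types, whereas the Sema7a points of adipocytes and fibroblasts overlap.

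Partners that bind each other were compared by the cell type in which each peaked. Of 24 known ligand and receptor pairs, 18 (75%) had their highest adult mean in different types and 6 in the same type. With 4 equally likely types 75% of pairs would differ, but the types were not equally likely. Fibroblasts were called highest for 18 members and adipocytes for 2. Pairs also share members. The count therefore cannot show whether partners tend to peak apart or together. Both partners were called highest in a type for 14 pairs, and the type was shared by 3: Efnb1 with Ephb2 in basal cells (51.3 and 12.5 RPKM) and Slit2 and Slit3 with Robo2 in fibroblasts (2.75 and 92 RPKM for the ligands, 1.23 for Robo2). Ntn1 peaked in luminal cells (33.0 RPKM) and its receptor Unc5b in fibroblasts (11.1 RPKM), and Ntn1 was also high in fibroblasts (25.3 RPKM). Sema3c peaked in basal cells (18.6 RPKM) but was also at 11.1 RPKM in adipocytes and 7.69 in fibroblasts. Its receptors Nrp1, Nrp2 and Plxnd1 peaked in the stroma (19, 14.8 and 18.9 RPKM). Efnb2 peaked in fibroblasts (17.2 RPKM, with 12.0 in basal cells) and Ephb4 in basal cells (31.3 RPKM, with 12.7 in fibroblasts). Slit3 and Robo1 had the same arrangement (92 RPKM in fibroblasts and 2.28 RPKM in basal cells), with Robo1 at 1.81 RPKM in fibroblasts as well. Sema4c was near level in fibroblasts, adipocytes and luminal cells (25.3, 21.2 and 20.3 RPKM), beside Plxnb2 at 50.7 RPKM in luminal cells. Sema7a reached 76.1 RPKM in fibroblasts, where its receptor Plxnc1 was at 0.767 RPKM. A level of RNA does not show that the proteins met.

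**Figure D3:**
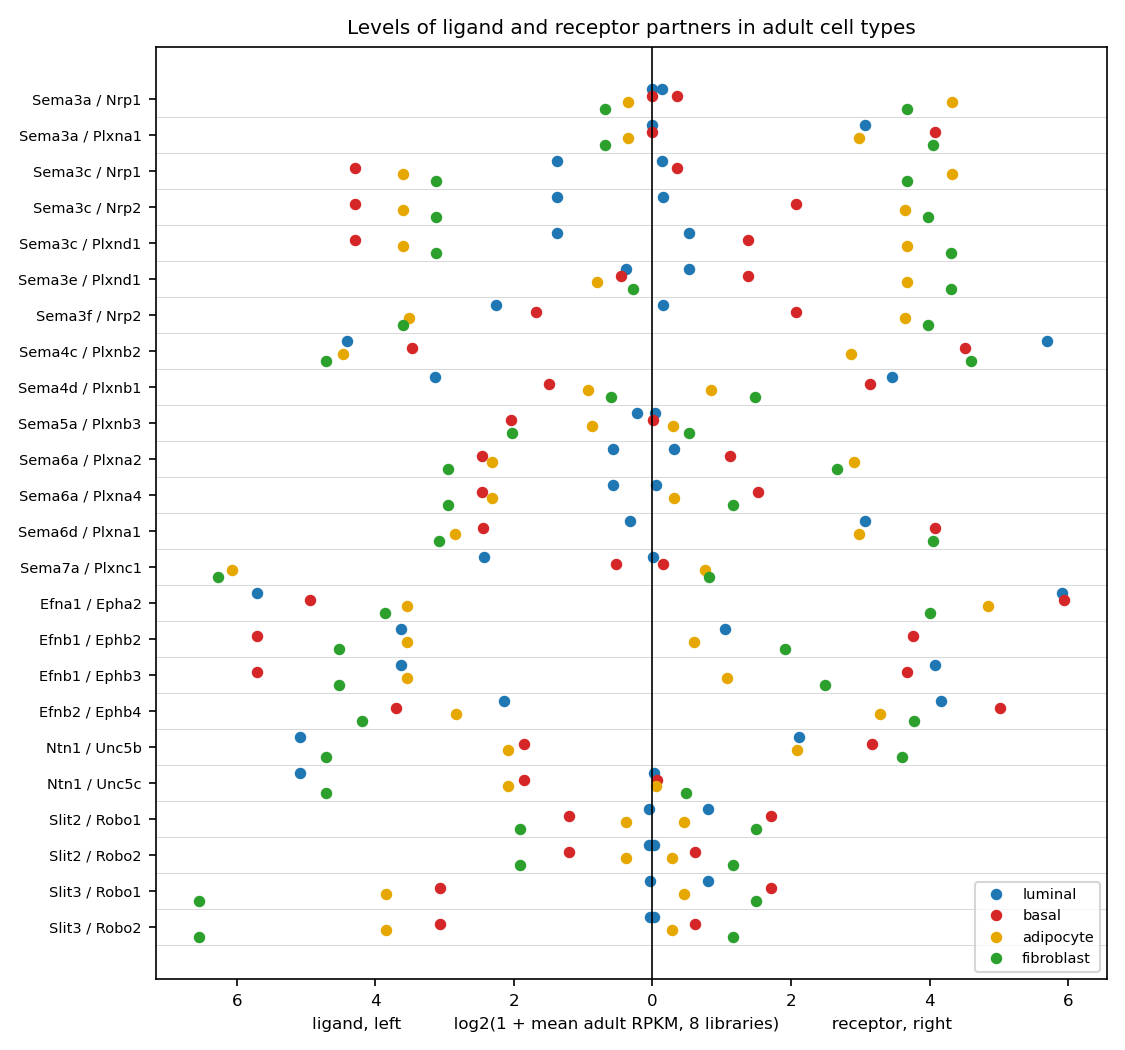
Adult levels of the 24 ligand and receptor pairs, 1 row a pair, as log2(1 + mean RPKM of 8 libraries), with the ligand drawn to the left of the zero line, the receptor to the right and 1 coloured point per cell type. Partners reach their highest level in different types for 18 pairs (75%), among them Sema3c (basal) with Nrp1 (adipocytes), and in the same type for 6, among them Efnb1 and Ephb2 (basal).

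A list of 55 other genes of these pathways (further receptors and ligands, and proteins that act inside the cell) was counted in the same fits, and 51 were tested. Against the mean of the other 3 types, fibroblasts had 30 higher (39.9% of all genes) and 12 lower (37.7%), basal cells 22 (39.7%) and 18 (34.6%), adipocytes 20 (43.9%) and 24 (36.6%), and luminal cells 17 (38.0%) and 27 (35.7%). The basal and adipocyte counts were near those shares of the 51 genes. Among them, Dpysl3, which relays semaphorin signals to the cytoskeleton, was 54.2 ± 9.37 RPKM in fibroblasts, 27.9 ± 3.59 in basal cells and 0.289 ± 0.150 in luminal cells. Mical2, an actin-oxidising enzyme of the same family as the plexin partner Mical1, was 55.5 ± 12.0 RPKM in basal and 1.59 ± 0.320 in luminal cells. The netrin receptor Neo1 was 10.4 ± 3.11 RPKM in fibroblasts, 9.96 ± 1.38 in basal, 6.98 ± 0.569 in luminal and 4.95 ± 0.647 in adipocytes, whereas Dcc, the classical netrin receptor, had no reads in the adult luminal and basal libraries.

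The pubertal libraries, fitted on their own with 2 per type, gave fewer calls. Of 59 members tested among 14263 genes, luminal cells were highest for 3 (Efna1, Plxnb2 and Sema4d, background 6.46%), basal cells for 5 (Efna5, Efnb1, Ephb1, Ephb2 and Sema4g, background 4.01%), adipocytes for 0 (background 5.13%) and fibroblasts for 5 (Epha3, Sema3a, Sema3b, Sema5b and Slit3, background 6.16%). For the 12 members that had a called highest type at both times it was the same type, a share that was not counted over all genes. Members without a call at both times are not covered by it. Sema4b, called highest in adult luminal cells, had pubertal means of 8.04 RPKM in basal and 4.66 RPKM in luminal cells. Plxnb2 was at 47.6 and 35.7 RPKM in the pubertal luminal libraries, Efnb1 at 29.8 and 32.1 in basal and Slit3 at 75.5 and 35.7 in fibroblasts. These counts depended on single libraries. The luminal count was 1 without either basal library. The basal count was 9 without the second adipocyte library, 3 without either basal library or the first fibroblast library and 2 without the second fibroblast library. The adipocyte count was 5 without the second adipocyte library, and the fibroblast count was 10 without the first adipocyte and 2 without the second fibroblast library. The pubertal adipocyte libraries differed widely from each other, as in Sema7a (166 and 27.8 RPKM), Robo4 (22.2 and 3.96 RPKM) and the endothelial marker sum (633 to 3392 CPM).

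The most calls between puberty and adulthood were in basal cells. Of 53 members tested in basal cells, 23 were higher in puberty (background 24.8% of all genes) and 14 lower (24.5%), and the median was 0.29 on the log2 scale against -0.02 over all genes. Sema3e, the ligand of Plxnd1, was at 5.18 and 5.97 RPKM in the 2 pubertal libraries and between 0.156 and 0.973 in the 8 adult ones (median 0.265), 4.07 ± 0.26 higher on the log2 scale (edgeR adjusted p = 3.76e-06). Sema3d was at 2.96 and 3.36 RPKM against 0.157 to 0.477 (3.26 ± 0.22, edgeR adjusted p = 4.36e-06). Neither gene had a pubertal library within its adult range. Sema3a, which signals through Nrp1, was at 0.312 and 0.407 RPKM from 193 reads, against 12 reads in all 8 adult libraries, of which 3 had none (edgeR adjusted p = 1.09e-05). Sema3c, already abundant in adult basal cells, was at 43.1 and 47.4 RPKM against 14.2 to 21.9 (1.23 ± 0.17, edgeR adjusted p = 0.000295). Of 17 semaphorins tested, 11 were higher and 2 (Sema4c and Sema4d) lower.

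Other members higher in pubertal basal cells were Epha3, at 0.326 and 0.256 RPKM against 0.0133 to 0.0388 (30 reads in the 8 adult and 98 in the 2 pubertal libraries, 3.67 ± 0.30), and Nrp1, at 1.1 and 1.20 RPKM against 0.153 to 0.511 (2.08 ± 0.27, edgeR adjusted p = 0.000178). A Slit and its receptor rose as well: Slit2 was at 2.13 and 2.19 RPKM against 0.932 to 1.73 (0.68 ± 0.14) and Robo1 at 4.79 and 4.13 RPKM against 1.79 to 3.55 (0.93 ± 0.18), in neither case with overlap. The remaining higher members were Efna5, Efnb2, Epha1, Epha4, Epha7, Plxna2, Robo2, Sema3b, Sema4a, Sema4b, Sema4f, Sema4g, Sema5a, Sema6d and Unc5c. Of the 12 members that were highest in adult basal cells, 6 were lower in puberty (Efnb1, Ephb1, Ephb2, Ephb4, Ntn4 and Plxna4), 4 were higher (Efna5, Epha7, Robo1 and Sema3c) and 2 were not called. The 12 were chosen for their level in the same 8 adult basal libraries that puberty was compared with. Nor was the split counted over all genes highest in adult basal cells, so it is a description only. Ntn4 was at 5.14 and 4.34 RPKM against 7.93 to 19.8 (-1.59 ± 0.26, edgeR adjusted p = 0.000634), Ephb1 at 1.90 and 1.67 against 2.76 to 4.68 (-1.25 ± 0.20, edgeR adjusted p = 0.000575), Ephb2 at 5.13 and 6.45 against 9.11 to 16.4 (-1.15 ± 0.21, edgeR adjusted p = 0.0013) and Efnb1 at 29.8 and 32.1 against 39.2 to 66.5 (-0.77 ± 0.11), all without overlap. Sema4c was lower too, at 5.87 and 4.36 RPKM against 7.36 to 13.1 (-1.04 ± 0.22, edgeR adjusted p = 0.00292), a call that was lost without the second pubertal library or when all cell types were fitted together. The other lower members were Efna1, Epha2, Ephb3, Ephb4, Ntn1, Plxna4, Plxnb1, Sema4d and Unc5b.

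Markers of other cells moved with this contrast. The sum of 7 epidermal markers was 115 to 196 CPM in the 2 pubertal basal libraries and 3.86 to 7.0 CPM in the 8 adult ones, and 6 of 6 tested epidermal genes were higher in puberty. The fibroblast marker sum was 87.6 to 89.3 CPM in puberty, inside the adult range of 58.0 to 144 CPM, the basal marker sum was 7977 to 9466 against 10777 to 14913 CPM, and the luminal marker sum was 1005 to 1318 against 1567 to 2012 CPM, the last pair also without overlap. Efna1, Ephb3, Ntn1, Plxnb1 and Sema4d, which were lower in pubertal basal cells, have their highest adult mean in luminal cells. The part of epidermal and luminal cells in these differences was not tested. Without the second pubertal basal library the number of members called fell from 37 to 24. Of 47 other pathway genes tested in basal cells, 16 were higher and 13 lower in puberty, among them Flrt2 and Flrt3, ligands of Unc5 receptors, at 3.83 ± 0.37 and 1.28 ± 0.13, Neo1 at 0.78 ± 0.13, and Rnd1, a small GTPase that binds plexins, at -2.35 ± 0.22.

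Few of these genes were called between puberty and adulthood in luminal cells. Of 44 members tested, 1 was higher in puberty (background 6.55%) and 5 were lower (4.2%). Sema7a was at 8.23 and 8.91 RPKM in puberty and between 3.32 and 7.43 in adults, without overlap (1.01 ± 0.20, edgeR adjusted p = 0.0139), and the call was lost without the second pubertal library and when all cell types were fitted together. Ephb6 was at 3.10 and 3.44 RPKM against 6.51 to 12.2 (-1.52 ± 0.24, edgeR adjusted p = 0.0045), and Ephb2 at 0.231 and 0.240 against 0.570 to 1.55 (-2.12 ± 0.37, edgeR adjusted p = 0.00756). Ntn1 was at 20.7 and 14.8 RPKM against 26.8 to 39.7 (-0.87 ± 0.19, edgeR adjusted p = 0.0216) and Ntn4 at 2.49 and 1.87 against 2.78 to 4.12 (-0.66 ± 0.17), so that Ntn1 and Ntn4 were both lower in puberty without overlap. Unc5b was at 2.03 RPKM, inside its adult range of 1.95 to 5.63, and at 1.40 RPKM, below that range (-0.81 ± 0.19). The epidermal sum was 189 to 254 CPM in the pubertal and 60.3 to 111 CPM in the adult luminal libraries, the basal sum was 62.4 to 151 against 31.1 to 54.5 CPM and the fibroblast sum was 22.5 to 35.6 against 107 to 532 CPM, none of which overlapped. The part of these cells in the luminal differences was not tested. The number of members called was 17 without the first and 3 without the second pubertal library, and 3 without the first proestrus library. Of 47 other pathway genes, 7 were higher and 4 lower.

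**Figure D4:**
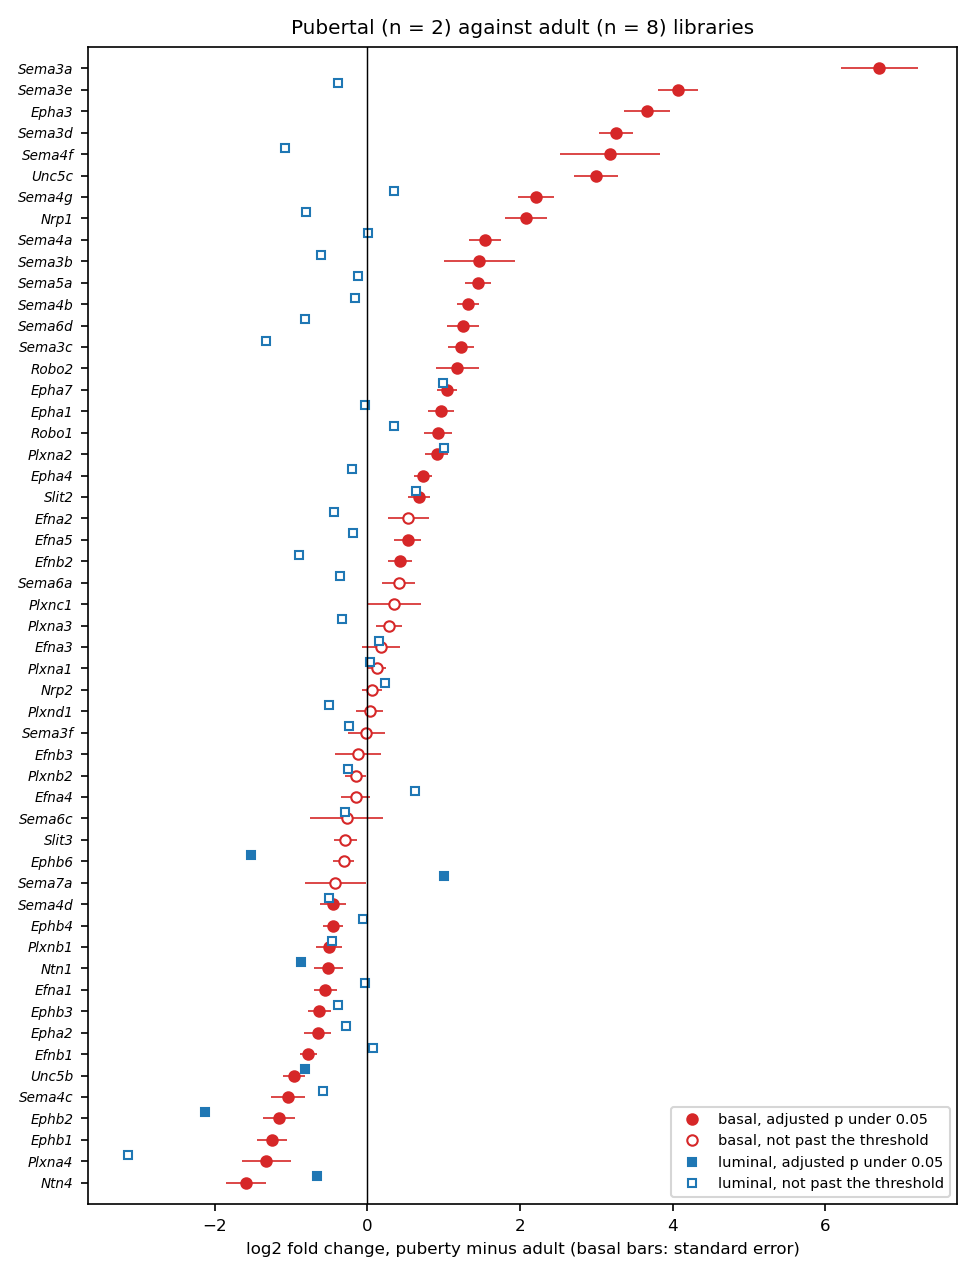
The log2 fold change of puberty minus adulthood (2 against 8 libraries) of the 53 members tested in basal cells (red circles, bars are the standard error) and, where tested, in luminal cells (blue squares), filled where the adjusted p was under 0.05. The members are ordered by the basal value, from Sema3a and Sema3e (4.07) at the top to Ntn4 (-1.59) at the bottom, and the filled luminal squares lie left of zero apart from Sema7a.

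In fibroblasts 6 of 56 members were higher in puberty (background 12.5%) and 4 lower (6.4%). Sema3a was at 1.82 and 5.53 RPKM in puberty and between 0.169 and 1.18 in adults, without overlap (2.75 ± 0.37, edgeR adjusted p = 0.0038), and was not called without the second pubertal library (edgeR adjusted p = 0.0936). Epha3 was at 18.3 and 7.5 RPKM against 2.67 to 10.6 (1.27 ± 0.34, edgeR adjusted p = 0.0302), Efna5 at 3.14 and 1.90 against 0.681 to 2.22 (1.02 ± 0.31, edgeR adjusted p = 0.0453) and Sema4a at 0.637 and 0.472 against 0.824 to 2.55 (-1.33 ± 0.38, edgeR adjusted p = 0.0383). Of these 3 genes, Epha3 and Efna5 had 1 pubertal library inside the adult range. Sema5a, Sema6d and Robo1 were also higher, and Ntn1, Efnb1 and Plxnd1 lower. The 10 calls became 3 without the first pubertal library, 0 without the second, 5 without either metestrus library and 17 without the first diestrus library. The fibroblast marker sum was 85466 to 116827 CPM in puberty against 18401 to 48622 CPM in adults. Its part in these differences was not tested. Of 49 other pathway genes, 2 were higher and 2 lower.

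In adipocytes 8 of 56 members were higher in puberty (background 6.1%) and 0 lower (6.21%): Epha1 (1.71 and 1.33 RPKM against 0.133 to 2.1), Robo1 (0.891 and 1.0 against 0.195 to 0.871), Ephb3 (2.40 and 1.74 against 0.459 to 2.41), Sema5a (1.70 and 1.69 against 0.587 to 1.39), Plxnb2 (12.1 and 8.95 against 3.38 to 17), Epha7, Plxnb1 and Plxna3. Only Robo1 and Sema5a had both pubertal libraries above every adult one, with log2 differences of 1.54 ± 0.26 and 1.1 ± 0.21 (edgeR adjusted p = 0.0238 and 0.0271). Below an unadjusted p of 0.05 were 18 of the 56 members and 4644 of all 14219 genes. DESeq2 called 14 members, a count given here without its share of all genes. Fibroblast markers separated the ages in the adipocyte fraction, at 9108 to 17966 CPM in the 2 pubertal against 3536 to 7407 CPM in the 8 adult libraries. Robo1 and Sema5a were at higher levels in pubertal fibroblasts (means of 3.23 and 5.42 RPKM) than in any adipocyte library. The luminal sum was 792 to 1377 CPM in puberty against 145 to 1730 in adults, and the basal sum was 282 to 2616 against 27.7 to 5332 CPM, both overlapping. The part of fibroblasts and epithelial cells in these differences was not tested. With both diestrus adipocyte libraries left out, 19 members were called. The count was 0 without the first pubertal, the second proestrus or the first metestrus library, 1 without the second estrus, 3 without the first proestrus, 4 without the second metestrus, 5 without the first estrus and 19 without the second diestrus library. Of 50 other pathway genes, 9 were higher and 1 lower.

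The shift between puberty and adulthood differed between luminal and basal cells for 13 of 59 members, where 17.2% of all 15356 genes were called, in a fit over all 40 libraries in which a run effect shared by both types cancels. For 12 of the 13 the pubertal shift was more positive in basal cells. Sema4b was at 8.5 and 7.59 RPKM in pubertal basal libraries against 2.07 to 4.39 in adults, and at 5.64 and 3.69 against 3.78 to 7.01 in luminal cells, an interaction of -1.45 ± 0.30 (edgeR adjusted p = 0.00233). By mean, Sema4b was highest in luminal cells in adults and in basal cells in puberty, but no pubertal type was called highest for it. Its interaction was not called without the second pubertal luminal library. Sema4f was at 0.295 and 0.368 RPKM in pubertal luminal against 0.465 to 1.54 in adult luminal libraries and at 0.273 and 0.225 against 0 to 0.183 in basal cells (edgeR adjusted p = 0.00247, with 29 reads in the 8 adult basal libraries). Nrp1 differed by -2.85 ± 0.65, Sema4g by -1.86 ± 0.43, Sema3e by -4.44 ± 1.19 and Sema6d by -2.05 ± 0.56 (edgeR adjusted p between 0.00469 and 0.0137). Efnb1 was the member with the opposite sign, 0.86 ± 0.29. The 13 became 5 without the first pubertal basal library and 2 without the second pubertal luminal library.

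Between fibroblasts and adipocytes the shift differed for 10 of 59 members (background 13%), with 9 more positive in adipocytes and only Sema3a more positive in fibroblasts (2.17 ± 0.69, edgeR adjusted p = 0.0413). Ephb3 differed by -1.89 ± 0.26, Plxnb2 by -1.68 ± 0.24, Ntn1 by -1.55 ± 0.26, Plxnb1 by -2.36 ± 0.47, Sema4d by -2.06 ± 0.47 and Ephb6 by -1.67 ± 0.39 (edgeR adjusted p from 0.000252 to 0.00705). All 6 of these genes had their highest adult mean in luminal cells, and 6 of 10 luminal markers gave a negative interaction as well, and the luminal marker sum was 792 to 1377 CPM in pubertal adipocyte libraries, within the adult adipocyte range of 145 to 1730 CPM, and 40.3 to 67.7 CPM in pubertal fibroblasts against 31.7 to 278 CPM in adult ones. The part of luminal cells was not tested. Of all genes called in this contrast, 33.8% were positive, and with the size factors of DESeq2 56.3% were, with the median of all genes moving from -0.17 to -0.02. Of the members, 1 was then positive and 8 negative. The 10 became 5 without the second pubertal fibroblast library and 22 without the second pubertal adipocyte library.

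Across the 4 estrous stages, few genes of these families were called in the epithelium. In luminal cells 1 of 44 members, Unc5b, was called. It was at 5.08 and 5.63 RPKM in proestrus, 4.07 and 3.18 in estrus, 2.22 and 1.99 in metestrus and 1.95 and 2.46 in diestrus. Both proestrus libraries lay above the other 6, and the estrus libraries above those of metestrus and diestrus. Unc5b in proestrus exceeded the mean of the other stages by 1.05 ± 0.13 (edgeR adjusted p = 0.0175, 0.382% of all 12306 genes called higher), metestrus by 1.33 ± 0.17 (edgeR adjusted p = 0.0296, background 0.154%) and diestrus by 1.26 ± 0.17 (edgeR adjusted p = 0.0366, background 0.211%). The contrast with the other stages called 0 members without either proestrus or either metestrus library and 3 without the second diestrus library. For pairs of stages the count was 0 without any 1 of the proestrus, estrus or metestrus libraries and 2 without the second diestrus library. Its partner Ntn1 ran from 26.8 to 39.7 RPKM over the same libraries and was not called, and in the other 3 types Unc5b was not called.

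In basal cells no member of 50 was called by edgeR in any of the 10 stage contrasts, where 150 of all 12122 genes (1.24%) were called in at least 1 and 7 contrasts called none. Between 4 and 13 members (8.0 to 26%) had an unadjusted p below 0.05 in a contrast, as did 6.28 to 24.7% of all genes. DESeq2 called 11 members in at least 1 pair of stages and 0.322 to 5.43% of all genes in each pair. The 3 members with the smallest unadjusted p were Sema3e, Nrp2 and Efnb1. Sema3e was at 0.973 and 0.510 RPKM in estrus against 0.156 to 0.405 in the other 6 libraries (1.64 ± 0.36, edgeR adjusted p = 0.0799). Nrp2 was at 4.08 and 4.18 RPKM in metestrus against 1.99 and 2.36 in diestrus (0.93 ± 0.17, edgeR adjusted p = 0.315). Efnb1 was at 39.2 and 42.6 RPKM in proestrus against 57.3 and 66.5 in estrus (-0.64 ± 0.15, edgeR adjusted p = 0.246). The groups compared did not overlap in these 3 cases, but the 3 were picked by their small p and none passed the adjusted threshold. The lack of overlap therefore carries no weight of its own. Leaving out the second estrus, the first proestrus or the second proestrus basal library gave 1, 2 and 1 calls against the mean of the other stages.

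In fibroblasts no member of 56 was called by edgeR either, and neither was any other of the 13068 genes in the 10 contrasts (background 0.0%), so the count of 0 is not particular to these families. The study, also with edgeR and at the same threshold, did report genes called between fibroblast stages, with estrus standing out most. Fitted together with the other cell types, fibroblasts had members called between stages too, as given below. The reason for these differences was not tested. Between 6 and 21 members (10.7 to 37.5%) had an unadjusted p below 0.05 in a contrast, as did 7.5 to 23.3% of all genes. DESeq2 called 20 members in at least 1 pair and 0.796 to 10.5% of all genes in each pair. Ntn1 was at 24.7 and 23.1 RPKM in proestrus, 27.5 and 28.2 in estrus, 38.1 and 31.9 in metestrus and 15.6 and 13.5 in diestrus, and metestrus exceeded diestrus by 1.28 ± 0.19 (edgeR adjusted p = 0.107). Sema3b was at 21.7 and 20 RPKM in estrus and 9.63 and 9.21 in diestrus (1.08 ± 0.21, edgeR adjusted p = 0.0888). Epha4 was at 8.86 and 10.9 RPKM in metestrus and between 4.72 and 6.13 in the other 6 libraries (0.91 ± 0.16, edgeR adjusted p = 0.13). Diestrus was the lowest stage for Ntn1 and Sema3b in both libraries. Leaving out the second estrus library gave 6 calls in pairs and 1 against the mean of the other stages.

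In adipocytes 12 of 54 members were called when diestrus was set against the other 3 stages, 11 higher (background 7.53% of all genes) and only Sema3g lower (3.52%), and 0 in any pair of stages. Pairs of adipocyte stages called 11 of all 13726 genes (0.0801%), and 5 of the 6 pairs called none. The study reported far more genes as upregulated in every adipocyte pair with diestrus, and the reason for the difference was not tested. In a pair 1 to 22 members (1.85 to 40.7%) had an unadjusted p below 0.05, as did 1.81 to 28.5% of all genes, and DESeq2 called 23 members in at least 1 pair and 0.0437 to 15.3% of all genes in each. Plxnb2 was at 10.6 and 17 RPKM in diestrus and between 3.38 and 4.25 in the other 6 libraries (1.90 ± 0.19, edgeR adjusted p = 0.0138). Epha1 was at 1.15 and 2.1 RPKM against 0.133 to 0.491 (2.74 ± 0.33), Ephb3 at 2.41 and 2.17 against 0.459 to 0.859 (1.73 ± 0.22), Ntn1 at 4.80 and 5.60 against 2.15 to 2.83 (1.03 ± 0.13) and Plxnb1 at 3.17 and 1.28 against 0.207 to 0.567 (2.84 ± 0.44). None of these overlapped. Ephb6, Slit2, Sema4d, Efna5, Robo1 and Robo2 were the other 6, with differences from 1.33 to 2.89. Sema3g was at 3.19 and 2.62 RPKM against 3.51 to 8.42 (-1.08 ± 0.22, edgeR adjusted p = 0.0376).

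All 11 members that were higher in diestrus had a higher adult mean in luminal or basal cells than in adipocytes. Many members of these families share that order. Of the 59 tested over the adult types, 31 were called higher in basal cells than in adipocytes (39.6% of all genes). In luminal cells 21 were called higher than in adipocytes (38.6% of all genes). Luminal markers were higher in both diestrus libraries than in the other adult adipocyte libraries. Basal and epidermal markers were so only in the second diestrus library. The luminal marker sum was 1730 and 664 CPM in the diestrus libraries against 145 to 445, the basal sum was 321 and 5332 against 27.7 to 432, and the epidermal sum was 22.4 and 1870 against 20.4 to 251 CPM. The part of epithelial cells in this result was not tested. The 12 calls became 24 without the first and 6 without the second diestrus library, 4 without the first proestrus library and 0 without the second proestrus, either estrus or either metestrus library. With both diestrus libraries left out, 0 members were called between the other stages. In pairs of stages, 25 members were called without the first and 6 without the second diestrus library. Of 49 other pathway genes, 13 were higher and 3 lower in diestrus.

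**Figure D5:**
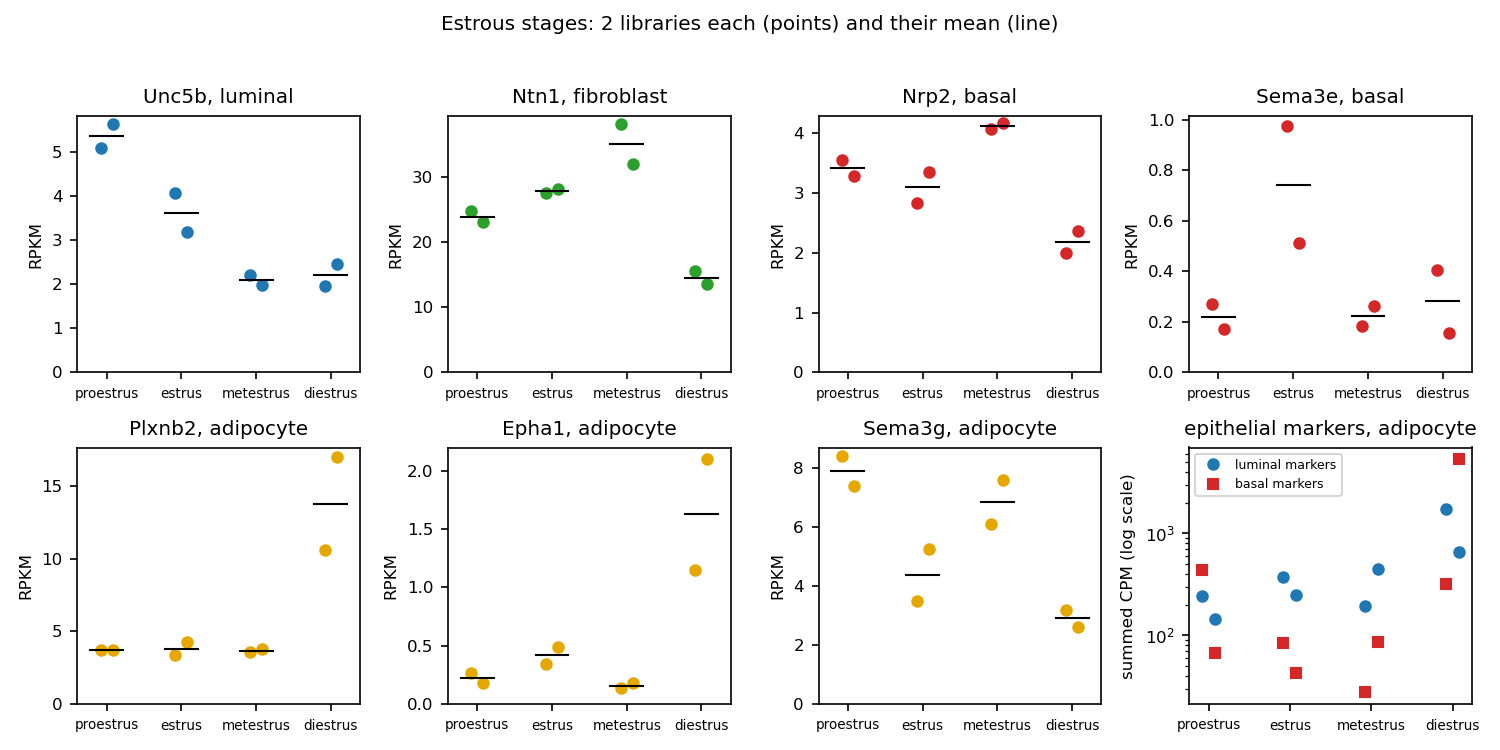
RPKM by estrous stage, 1 point per library with a line at the mean of 2, for Unc5b in luminal cells, Ntn1 in fibroblasts, Nrp2 and Sema3e in basal cells and Plxnb2, Epha1 and Sema3g in adipocytes, with the summed CPM of luminal and basal markers in the adipocyte libraries on a log scale in the last panel. Unc5b falls from 5.08 and 5.63 RPKM in proestrus to 1.95 and 2.46 in diestrus. The high diestrus points of Plxnb2 and Epha1 in adipocytes are from the libraries with the highest luminal marker sums.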

How the data were processed

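Polyadenylated RNA of 40 pooled samples was sequenced with a stranded kit. The files hold raw counts of reads per gene, deposited as 1 table of 25044 genes for the adult and 1 of 24268 genes for the pubertal libraries. Per the submitters' processing notes and the study's methods, the authors aligned reads to GRCm38/mm10 with TopHat2 2.1 and Bowtie 1.1.0 and counted them with HTSeq, whose strand setting was not given in the sources used here. Gene identifiers were matched to symbols for 24739 adult and 23989 pubertal genes. Totals were 8991222 to 22760563 counts per library, which limits what can be said of genes with few reads. Libraries of a group came from separate pools of mice, so p-values measure the spread between pools. Genes and lists were chosen with earlier results of these data known.

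Counts were fitted with edgeR 4.0.16 in R 4.3.3 (glmQLFit with legacy = TRUE, glmQLFTest). Tool, filter, scaling and threshold followed the study, but the counts of genes called between stromal stages did not match those it reported. Genes were kept where at least 2 libraries of the fit exceeded 1 CPM, and libraries were scaled by trimmed mean of M-values (TMM). P-values were adjusted by Benjamini and Hochberg over all genes of a contrast, with a threshold of 0.05. Cell types were compared in 1 fit per table with groups of cell type by stage, stages within a cell type over 8 libraries, puberty against the mean of the 4 adult stages within a cell type over 10 libraries and the genes in both tables (23180 before the filter), and interactions over all 40 libraries. A standard error is the size of the log2 fold change divided by the square root of F. RPKM values divide counts by union exon length and by TMM-scaled library size over the 40 libraries. Scripts were tested on simulated data. Members named with values were those called highest in a cell type (up to 5 ligands and 5 receptors a type), called between stages (or the 3 with the smallest p), called in puberty (up to 4 a direction with a log2 change of at least 1), up to 6 in each interaction, and the members of ligand and receptor pairs. Others are named without full statistics, and of these Epha2, Sema7a, Robo4, Slit2, Robo1 and the other pathway genes given with values were chosen after their values were seen.

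Per the study's methods, the cell types of a stage were isolated from the same mice, so the replicate number pairs the cell types, apart from the second pubertal adipocyte library, which came from another day of isolation than the other second pubertal libraries. The 2 libraries of an adult stage may hold earlier and later mice of that stage. Over 30 comparisons of cell types within a stage the correlation of deviations ran from -0.031 to 0.269 (median 0.085). Stages do not share mice. Alternatives were DESeq2 1.42.0, size factors by relative log expression, no filter on low counts, the newer quasi-likelihood method of edgeR, the replicate block, 1 fit over the cell types, leaving out each library in turn or both diestrus adipocyte libraries, and RPKM on total counts.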

Additional observations from a re-analysis of the deposited data

Results flagged for a closer look

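Single libraries stood apart for 17 of the 135 combinations of a member and an adult cell type with a mean of at least 1 RPKM, where the gap to the nearest of the other 7 libraries was a larger part of the range of all 8 than Dixon's 95% critical value, which chance passes in about 1 in 20 groups. The second diestrus adipocyte library gave 6 of these, all high, with Epha2 at 55.8, Efnb2 at 15.1, Epha4 at 12.0, Sema4b at 7.01, Efna5 at 6.64 and Ephb6 at 4.73 RPKM. The same library held basal markers at 5332 CPM and epidermal markers at 1870 CPM, and the part of such cells in these 6 values was not tested. The first diestrus adipocyte library was low for Slit3 (9.90 RPKM) and Sema3b (2.13 RPKM).

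In the epithelium, Efna1 was at 39.1 RPKM in the second diestrus, Efna4 at 7.80 in the second estrus and Robo1 at 3.55 in the second metestrus basal library. Sema3c was at 4.06 RPKM in the first diestrus, Sema4d at 11.6 in the first proestrus and Sema7a at 7.43 in the first estrus luminal library. In fibroblasts, the second diestrus library was high for Robo1 (3.40 RPKM) and Plxna4 (2.81 RPKM), and the first proestrus library was low for Unc5b (7.12 RPKM).

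The shift from adulthood to puberty differed between luminal and basal cells for 13 members by the edgeR interaction at an adjusted p under 0.05. The log2 shift in luminal cells minus that in basal cells was -4.44 for Sema3e, -4.23 for Sema4f, -2.85 for Nrp1, -2.54 for Sema3c, -2.05 for Sema6d, -1.86 for Sema4g, -1.55 for Sema5a, -1.50 for Sema4a, -1.45 for Sema4b, -1.32 for Efnb2, -1.19 for Ephb6, -0.98 for Epha1 and 0.86 for Efnb1. The shift in fibroblasts minus that in adipocytes was -2.36 for Plxnb1, -2.06 for Sema4d, -1.89 for Ephb3, -1.68 for Plxnb2, -1.67 for Ephb6, -1.58 for Epha1, -1.55 for Ntn1, -1.22 for Plxna3, -0.96 for Efnb1 and 2.17 for Sema3a, the 10 members called by the same test.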

How the results depend on the processing

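Counts of called members over the adult cell types stayed within 1.5 times of the reported ones under every alternative run, apart from the adipocyte count of highest members, which was 1 to 2 with a library left out. Between stages and between puberty and adulthood the counts moved, and the cause was not tested. Apart from DESeq2 in pairs of stages, the share of all genes called under each setting is not given. The counts therefore do not show whether a setting called more genes in general or more of these families. DESeq2 called 11, 23 and 20 members in pairs of stages and 5, 23 and 18 in a stage against the others in basal cells, adipocytes and fibroblasts, and 10 and 14 between puberty and adulthood in luminal cells and adipocytes. Without a filter on low counts the counts in pairs of stages were 13, 15, 4 and 30 in luminal, basal, adipocyte and fibroblast cells, those against the other stages were 12, 11 and 27 in luminal, basal and fibroblast cells, and those of puberty against adulthood were 12 in luminal cells and 18 in fibroblasts. In 1 fit over the cell types the counts were 1, 26 and 13 in pairs and 1, 23 and 12 against the other stages in basal cells, adipocytes and fibroblasts, and 16 for adipocyte puberty. The size factors of DESeq2 in edgeR gave 1 in adipocyte pairs. They moved the median of all genes by -0.13 between adult basal cells and adipocytes and by -0.11 between basal cells and fibroblasts. With both diestrus adipocyte libraries left out, 0 adipocyte members were called against the other stages and 19 in puberty.

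With the replicate number as a block, which pairs the cell types, the counts of members that differed between an adult type and the other 3 were 49, 48, 53 and 57 in luminal, basal, adipocyte and fibroblast cells and the interactions gave 14 and 13. Stages and ages share only the number: correlations of deviations within a cell type ran from -0.592 to 0.375 over pairs of stages and from -0.56 to 0.707 between puberty and a stage, and the replicate block gave 0 in luminal pairs of stages, 0 for adipocyte stages against the others and 5 in adipocyte puberty.

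With 1 library left out at a time, counts in pairs of stages were 0 to 2 in luminal cells, 0 to 25 in adipocytes and 0 to 6 in fibroblasts, and against the other stages 0 to 3, 0 to 2, 0 to 24 and 0 to 1 in luminal, basal, adipocyte and fibroblast cells. For puberty against adulthood they were 3 to 17, 24 to 36, 0 to 19 and 0 to 17 in the same order. The interactions gave 2 to 19 between luminal and basal cells and 5 to 22 between fibroblasts and adipocytes. Among the pubertal cell types, basal cells differed from the others at 19 to 39 members, adipocytes from fibroblasts at 9 to 24, and the members called highest were 1 to 3, 2 to 9, 0 to 5 and 2 to 10 in luminal, basal, adipocyte and fibroblast cells. No direction turned for a member named with a test. Over all settings without a left-out library, 479 of the fold changes of such members kept their direction and side of the threshold, 17 lost and 12 gained a call. With total counts in place of TMM scaling, 17 mean levels moved by more than 1 SD and 118 did not.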
